A study of Mus musculus with 26 samples.

Results

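Cytokine signal genes of the JAK-STAT pathway were followed in TCRTg101, CD8+ T cells that carry a transgenic T cell receptor for an antigen of the C1498 leukemia. The 10 genes were listed by name and comprised 4 genes of the SOCS family (Socs1, Socs2, Socs3 and Cish), 4 STAT genes (Stat3, Stat4, Stat5a and Stat5b) and 2 JAK genes (Jak1 and Jak3), out of 35944 genes with a measured transcript. The list was not filtered on a measured value, but it was chosen with earlier results of these data known. All 10 were among the 15395 genes that passed the filter on low counts and were tested.

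TCRTg101 were isolated by flow cytometry and sequenced as 14 low-input RNA libraries. The labels give strain C57BL/6, an age of 6 weeks and a wild type genotype for every library. In the study's methods, the transgenic mice were bred onto a Rag2-/- background, the cells were transferred into C57BL/6 or B6.SJL hosts, and C1498 cells were injected i.v. 1 day later. The receptor genes were cloned from 1 CD8+ T cell clone into cassettes for T cell expression. The control group had 3 libraries, all labelled spleen: control 1 and control 2 were taken at day 0, and control 3 came from untreated mice at day 18. Undivided TCRTg101 (cells that kept the dye CellTrace Violet) gave 1 library, labelled as spleen of leukemia-bearing mice at day 18. Livers of leukemia-bearing mice gave 2 early libraries (day 7), 3 mid libraries (days 13, 13 and 14) and 2 late libraries (days 18 and 16, in the order late 1 and late 2). Spleens of leukemia-bearing mice gave 2 libraries at day 7 and 1 at day 14. As the controls were spleen cells, leukemia and tissue cannot be told apart in any comparison of liver with control. Control 1, mid liver 1 and late liver 1 have titles of the TG series and the other 11 libraries of the XC series, and this series was a term of the model.

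Totals ranged from 22918996 to 71358287 estimated counts per library. The 6 CD8 T cell markers (Cd3d, Cd3e, Cd3g, Cd8a, Cd8b1 and Trac) were present in all 14 libraries, with a summed level of 3496 to 8524 CPM (counts scaled to a library total of 1000000). The 3 hepatocyte markers (Alb, Apoa1 and Ttr) summed to 0.0450 to 0.227 CPM in controls, where Alb was at 0 in control 2 and Ttr at 0 in controls 1 and 2, and to 131, 13.8 and 1.79 CPM in the mid and 219 and 45.7 CPM in the late liver libraries. The 2 red cell markers summed to 2453, 9861 and 62.7 CPM and the 6 myeloid markers to 513, 110.1 and 16.8 CPM in controls 1 to 3, against 0.804 to 103 and 2.26 to 40.9 CPM in the other libraries. The 2 early liver libraries stood apart from each other. Ifng, the gene of the effector cytokine interferon-gamma, was at 105 CPM in early liver 1 and 1.57 CPM in early liver 2, beside 0.649 to 3.07 CPM in controls. Early liver values are therefore given library by library.

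Cytokines bind receptors whose cytoplasmic tails carry Janus kinases (JAKs). The kinases phosphorylate STAT proteins, which enter the nucleus and switch on target genes. Among these targets are SOCS genes and Cish, whose proteins bind active receptors or kinases and damp the signal, so they act as feedback inhibitors. JAK1 and JAK3 pair on receptors that use the common gamma chain, such as those for interleukin-2, interleukin-7 and interleukin-15, and mainly activate STAT5A and STAT5B. STAT3 follows interleukin-6, interleukin-10 and interleukin-21, and STAT4 follows interleukin-12. CISH is known as a STAT5 target that also restrains T cell receptor signaling in CD8+ T cells.

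Per unit of transcript length, Jak1 was the most abundant of the 10 genes in controls, at 369 ± 169.6 TPM (transcript number scaled to a library total of 1000000, SD, n = 3 as for the following control levels). Stat3 followed at 117.5 ± 32.9 TPM. Socs3 (73.0 ± 16.3), Jak3 (72.1 ± 34.9), Stat4 (60.4 ± 16.7) and Stat5b (60.0 ± 25.8 TPM) came next and did not differ from each other beyond their spread. Stat5a (28.3 ± 9.41) and Socs1 (21.5 ± 5.07 TPM) overlapped as well. Cish (3.29 ± 0.537) and Socs2 (2.25 ± 0.713 TPM) were lowest, and their ranges also overlapped. Cish moved up this order in the liver, to 26.5 ± 5.31 TPM at the mid (n = 3) and 21.7 ± 3.61 TPM at the late time point (n = 2). Socs3 moved down to 16.7 ± 13.4 TPM at the mid and 16.7 ± 21.2 TPM at the late time point, so that the 2 genes overlapped there. All further levels are CPM scaled by TMM, which compare libraries for 1 gene and not genes with each other.

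Sequences of the Cish and Socs3 promoters are shown because these genes differed most between liver and control and because each holds the core motif that STAT dimers are known to bind, TTCNNNGAA. They are RefSeq start regions of GRCm38.p6, from 250 bases before to 50 bases after the start, in lower case with the motif in capitals. The Cish region is chr9:107296409-107296708 on the plus strand, and the Socs3 region is chr11:117969317-117969616 on the minus strand.
Cish: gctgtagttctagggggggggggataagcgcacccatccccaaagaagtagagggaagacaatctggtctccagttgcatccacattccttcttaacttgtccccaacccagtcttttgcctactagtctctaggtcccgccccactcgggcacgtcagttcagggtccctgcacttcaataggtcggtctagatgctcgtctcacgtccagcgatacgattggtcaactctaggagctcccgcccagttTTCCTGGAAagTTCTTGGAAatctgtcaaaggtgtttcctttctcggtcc
Socs3: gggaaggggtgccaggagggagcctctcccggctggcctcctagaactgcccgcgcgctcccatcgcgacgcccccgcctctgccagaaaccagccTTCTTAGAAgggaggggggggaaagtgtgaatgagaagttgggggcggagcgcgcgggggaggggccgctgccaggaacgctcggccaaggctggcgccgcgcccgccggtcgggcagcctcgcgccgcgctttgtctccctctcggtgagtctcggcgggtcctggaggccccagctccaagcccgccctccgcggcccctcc
The motif reads the same on both strands. It was found 2 times in the Cish region, beginning at the RefSeq start site and 11 bases after it, and 1 time in the Socs3 region, 154 bases before the start site. The RefSeq start of Cish, chr9:107296659, lies inside the first exon of the GENCODE transcript Cish-201 (chr9:107296026-107297034). The motifs are therefore not at the start of Cish-201. Of 32851 promoter regions of this length in the table, 2726 (8.3%) held the motif and 150 (0.457%) held it at least 2 times. Of the 10 genes, 9 matched the table (Socs2 did not), with 12 regions in all, and the motif was in 2 of the 12. A match of letters is a description and not a site of binding.

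Cish was higher in TCRTg101 from mid and late livers than in controls. Its level was 11.6, 8.53 and 8.70 CPM in controls 1 to 3. It was 93.1, 66.4 and 76.1 CPM in mid livers 1 to 3 and 134.6 and 56.4 CPM in late livers 1 and 2. All 5 of these liver libraries were above all 3 controls, with 78.6 ± 13.5 CPM at the mid (SD, n = 3) against 9.62 ± 1.74 CPM in controls (SD, n = 3). Of all genes tested, 21% had every mid liver library above every control, and 27.9% had every late liver library above every control. The log2 fold change was 3.04 (SE 0.58, 95% interval 1.71 to 4.36) at the mid time point, an 8.20-fold rise. Its p from the quasi-likelihood test of edgeR, after Benjamini-Hochberg adjustment over all genes tested, was 0.014 (adjusted p). It was 3.12 (SE 0.63, 95% interval 1.69 to 4.55) at the late time point, an 8.68-fold rise (edgeR adjusted p 0.00952). Both contrasts used the same controls, and so did all contrasts with control below. As these are bulk libraries, more cells with Cish RNA and more Cish RNA per cell cannot be told apart, and the same holds for the other genes.

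The 2 early liver libraries differed in Cish. Early liver 1 had 81.6 CPM, within the range of the mid and late libraries, and early liver 2 had 12.3 CPM, near the controls. Early liver 2 was also near the controls in Ifng, as given above, and whether its label is right was not tested. For the early group the log2 fold change was 2.52 (SE 0.63) with an edgeR adjusted p of 0.403. Without early liver 2, Cish passed the threshold in this comparison, which then rested on 1 early library. In spleens of leukemia-bearing mice Cish was 11.7 and 9.17 CPM at day 7 and 12.2 CPM at day 14, and in undivided cells 9.92 CPM. The levels in spleen at day 7 and in undivided cells lay within or close to those of the controls. For mid liver against spleen at day 14 the log2 fold change was 2.47 (SE 0.90, adjusted p 0.711), and for late liver against undivided cells it was 2.85 (SE 0.97, adjusted p 0.135). Both rest on a group of 1 library that is assumed to vary like the other groups in edgeR's fit.

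Hepatocyte marker RNA differed between the liver libraries. The marker sum and the Cish level were 219 and 134.6 CPM in late liver 1, 131 and 93.1 CPM in mid liver 1, 45.7 and 56.4 CPM in late liver 2, 13.8 and 66.4 CPM in mid liver 2, 1.79 and 76.1 CPM in mid liver 3, 5.54 and 81.6 CPM in early liver 1, and 1.38 and 12.3 CPM in early liver 2. The 2 libraries with the most marker RNA had the most Cish, and they are the liver libraries of the TG series. Among the XC liver libraries, late liver 2 had the most marker RNA, and its Cish was above that of early liver 2 only. The part of this RNA in the Cish rise was not tested. Within the XC series alone the log2 fold change was 2.98 at the mid and 2.67 at the late time point, with edgeR adjusted p-values of 0.149 and 0.139. The mid call was lost without control 1 (adjusted p 0.076), control 2 (0.0503), mid liver 1 (0.0701) or mid liver 3 (0.0615), and the late call without control 1 (0.0586), late liver 1 (0.0729) or late liver 2 (0.0652), while the log2 fold change stayed between 2.71 and 3.55.

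The coding transcript Cish-201 carried most of this change. Its level, from kallisto's division of the counts, was 6.38 to 10.1 CPM in controls and 41.4 to 126.7 CPM in mid and late livers. Cish-202, annotated as a processed transcript whose first exon (chr9:107296907-107299778) runs through the first intron of Cish-201, took 5.47% to 19.2% of Cish counts in controls and 1.60% to 15.3% in mid and late livers. Its share was highest in early livers 1 and 2, at 30.9% and 37.0%. In the 3 TG libraries it was 1.60% to 5.47%, below all 11 XC libraries.

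Socs3, the inhibitor that binds the interleukin-6 receptor chain gp130, was lower in mid and late livers. Controls 1 to 3 had 178, 192 and 134 CPM. Mid livers 1 to 3 had 14.4, 68.4 and 38.1 CPM, and late livers 1 and 2 had 7.83 and 77.6 CPM. All 5 liver libraries were below all 3 controls, and the TG library was the lowest of both liver groups. Every mid library was below every control in 21.3% of all genes tested, and every late library in 28.2%. At the mid time point the log2 fold change was -2.46 (SE 0.78, 95% interval -4.26 to -0.67), a 5.52-fold fall (edgeR adjusted p 0.047). The late value was -2.43 (SE 0.91), and its adjusted p of 0.0702 missed the threshold. It was -1.42 without late liver 1 and -3.96 without late liver 2. Of 24 alternatives 22 missed the threshold too (highest adjusted p 0.417). It passed in 2, with DESeq2 (adjusted p 0.0152) and with edgeR without the filter on low counts (2.05e-14). The fit without the filter is less certain. Its median log2 fold change over all genes was 0.602 in spleen at day 7 against control, beside 0.009 with the filter.

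Early livers 1 and 2 had Socs3 levels of 75.3 and 322.9 CPM, the second above every control. Spleens at day 7 had 154 and 123 CPM, spleen at day 14 had 83.3 CPM and undivided cells had 117 CPM. Of these 4 libraries only the first at day 7 was within the control range. Spleen at day 14 and undivided cells had log2 fold changes of -1.67 (SE 1.18, adjusted p 0.84) and -1.18 (SE 1.15, adjusted p 1) by edgeR. Controls 1 and 2 held the most red cell and myeloid marker RNA, and control 3, with sums of 62.7 and 16.8 CPM for them, had the lowest Socs3 of the controls. Early liver 2 and spleen day 7 library 1 had lower sums of both than control 3 and more Socs3. The remaining libraries outside the controls had less Socs3 than control 3. The part of this RNA in the Socs3 difference was not tested. In controls the TG library lay between the XC libraries, and in mid and late liver it was lower than all of them. Within the XC series alone the log2 fold changes were -1.68 at the mid and -1.11 at the late time point, and without control 1 the mid value was -1.40 (adjusted p 0.191). The mid call was lost on leaving out any of 7 libraries in turn (control 1 or 2, mid liver 1, 2 or 3, or spleen day 7 library 1 or 2), with adjusted p-values of 0.0526 to 0.191.

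Socs1, an inhibitor of JAK kinases under interferon and common gamma chain cytokines, showed no difference that passed the test. It was 63.2, 51.0 and 65.2 CPM in controls, 55.9, 76.6 and 59.1 CPM in mid livers and 56.7 and 54.1 CPM in late livers. These ranges overlapped. The log2 fold changes were 0.09 (95% interval -0.31 to 0.49) at the mid and -0.11 (95% interval -0.56 to 0.35) at the late time point, so both intervals leave out a change of 1 on the log2 scale in either direction. Early livers 1 and 2, at 71.5 and 89.5 CPM, were both above the controls (log2 fold change 0.42, SE 0.21, adjusted p 0.502). Both early libraries were above all controls in 9.65% of all genes tested. Undivided cells had 74.3 CPM and the spleens 55.2 to 68.7 CPM.

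Socs2, best known as a brake on growth hormone signaling through STAT5, was the lowest of the 10 genes. Controls had 3.47, 1.68 and 1.36 CPM, mid livers 2.39, 1.91 and 4.31 CPM, and late livers 5.92 and 6.01 CPM. Both late libraries were above all controls and all mid libraries, with a log2 fold change over control of 1.46 (SE 0.65, 95% interval 0.03 to 2.89) and an edgeR adjusted p of 0.101. Over all genes tested, 27.9% had both late libraries above all controls and 8% had both above all mid libraries. Undivided cells (0.784 CPM) and spleen at day 14 (0.934 CPM) were below all controls. The same held for 18.6% of all genes tested in undivided cells and 22.6% in spleen at day 14. Late liver against undivided cells gave 2.75 (SE 1.05, adjusted p 0.155).

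**Figure D1:**
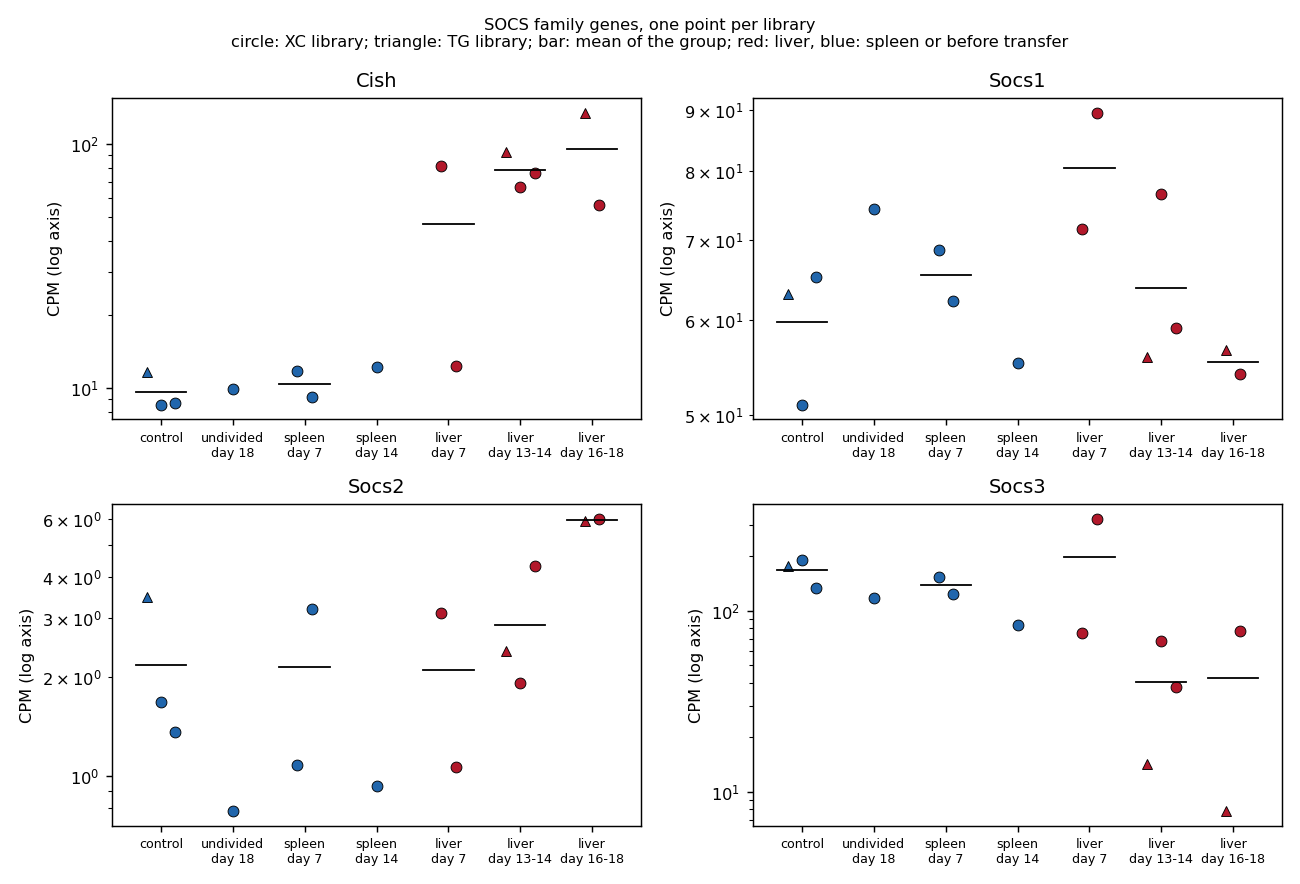
Level of each SOCS family gene in CPM (log axes) for the 14 low-input libraries by group, with 1 point per library, triangles for the TG series, circles for the XC series and bars for group means where there were at least 2 libraries. Cish was 56.4 CPM or higher in the 5 mid and late liver libraries and 11.6 CPM or lower in controls, Socs3 ran the other way, and Socs1 overlapped between these groups.

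In counts over the 10 genes, 2 passed the threshold in mid liver against control (Cish higher, Socs3 lower), where 29.4% of the 15395 genes tested passed (17.5% higher, 11.9% lower). In late liver against control 2 passed (Cish higher, Jak1 lower), where 34.4% of all genes passed (20% higher, 14.4% lower). The count of 2 in 10 was thus no larger than that background in either comparison. The median log2 fold change of the 10 genes was 0.29 at the mid and 0.42 at the late time point, beside -0.07 and -0.04 over all genes. By edgeR none of the 10 passed in early liver against control, where 0% of all genes passed and 1676 had an unadjusted p under 0.05. None passed in late against mid liver (0% of all genes, 768 at unadjusted p), spleen at day 7 (0%, 964) or undivided cells against control (0%, 172), or late liver against undivided cells (0%, 3752), nor in spleen at day 14 against control (0.0065%, 795) or mid liver against spleen at day 14 (0.0065%, 893). DESeq2 passed 1 of the 10 in early liver (Cish) and 2 in late liver against undivided cells (Cish and Socs2), and none in the other 5. At an unadjusted p under 0.05 edgeR had 1 of the 10 in early liver (Cish), 1 in mid liver against spleen at day 14 (Cish), 3 in late liver against undivided cells (Cish, Socs2 and Jak1) and 0 in the other 4.

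**Figure D2:**
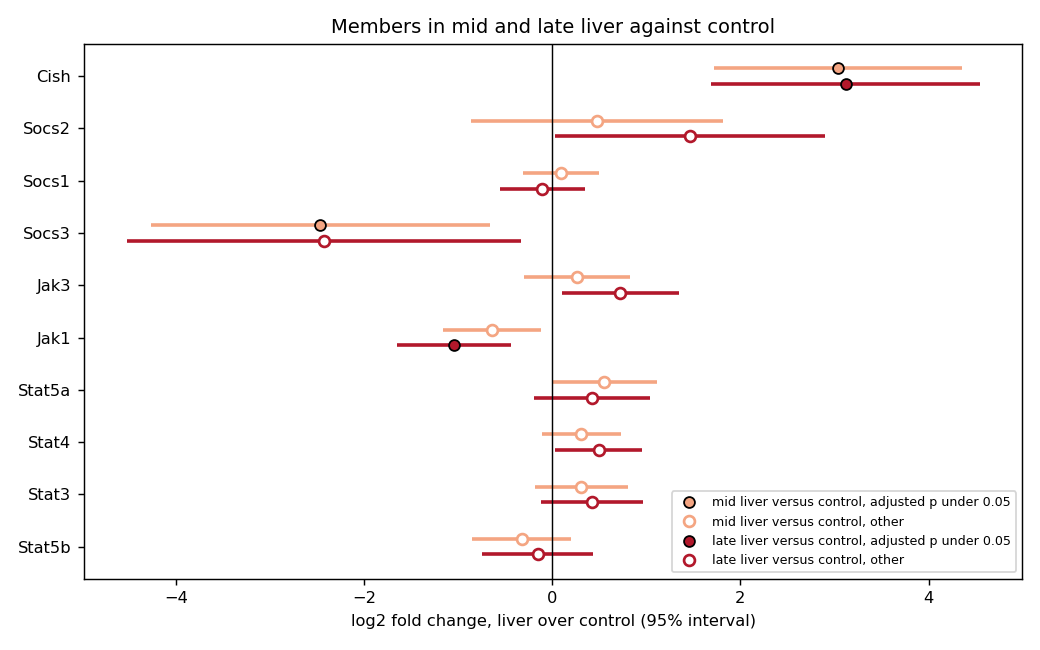
Log2 fold change of the 10 genes over control in mid and late liver, with 95% intervals from edgeR's fit and filled points where the adjusted p was under 0.05. Filled points are Cish (3.04 and 3.12), Socs3 at the mid (-2.46) and Jak1 at the late time point (-1.04).

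Jak1, the kinase shared by most receptors of the common gamma chain, gp130 and interferon families, was lower in late liver. Controls had 904, 1412 and 1500.0 CPM. Mid livers had 479, 1113 and 942 CPM, and late livers had 401 and 740.3 CPM. Both late libraries were below all controls, which held for 28.2% of all genes tested. The mid libraries overlapped with the controls through control 1. In each series on its own the order was control, mid, late, with 904, 479 and 401 CPM in the TG series. The share of all genes with this order was not computed. The late log2 fold change was -1.04 (SE 0.27, 95% interval -1.65 to -0.44), a 2.06-fold fall with an edgeR adjusted p of 0.0176. The mid change of -0.64 (SE 0.24) had an adjusted p of 0.0641 and passed in 5 of 24 alternatives (lowest 0.0109). Late against mid liver differed by -0.40 (SE 0.27, adjusted p 0.975).

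Early livers 1 and 2 had Jak1 levels of 944 and 1747 CPM. Spleens at day 7 had 1494 and 1179 CPM, spleen at day 14 had 1401 CPM and undivided cells had 1305 CPM, all 4 within the control range. Late liver was -0.82 (SE 0.36) from undivided cells on the log2 scale, with an adjusted p of 0.198. In XC libraries alone the late change was -1.02 (adjusted p 0.183), and the call was also lost without the series term (adjusted p 0.091) and without control 1 (0.096), late liver 1 (0.123) or late liver 2 (0.105).

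Jak3, the kinase bound to the common gamma chain, did not fall with Jak1. It was 168, 285 and 345 CPM in controls, 136, 424 and 484 CPM in mid livers and 257 and 523 CPM in late livers. These groups overlapped, and the TG library was the lowest of each. Within the XC series all 3 mid and late libraries were above both controls. The share of all genes with such an order within this series was not computed. The late log2 fold change was 0.72 (SE 0.28, 95% interval 0.10 to 1.35) with an edgeR adjusted p of 0.0683. It passed in 5 of 24 alternatives (lowest adjusted p 0.0318). The late intervals of Jak1 and Jak3 did not overlap, though the difference between the genes was not tested. Early livers 1 and 2 had 232 and 366 CPM, spleens 221 to 339 CPM and undivided cells 305 CPM.

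Stat3 was 278, 327 and 383 CPM in controls, 237, 574 and 484 CPM in mid livers and 319 and 516 CPM in late livers. The groups overlapped, with log2 fold changes of 0.31 (SE 0.22, adjusted p 0.3) and 0.42 (SE 0.25, adjusted p 0.195) by edgeR. Early livers, at 391 and 433 CPM, were above all controls, which held for 9.65% of all genes tested. Spleens at day 7 had 409 and 277 CPM, spleen at day 14 had 341 CPM and undivided cells had 333 CPM. Stat4 was 129, 153 and 195 CPM in controls, 125, 246 and 242 CPM in mid livers and 154 and 272 CPM in late livers. Its late log2 fold change was 0.49 (SE 0.21) with an adjusted p of 0.0884. Stat4 was 231 CPM in spleen at day 14 and 204 CPM in undivided cells, both above the controls, with edgeR adjusted p-values of 0.855 and 1. Levels above all controls were found for 28.6% of all genes tested in spleen at day 14 and 21.3% in undivided cells. For both Stat3 and Stat4 the TG library was the lowest of the control, mid and late groups.

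Stat5a and Stat5b, the paired transcription factors below interleukin-2 and interleukin-7, lie next to each other on chromosome 11 and end to end with Stat3 (Stat5b at chr11:100780731-100850724, Stat5a at chr11:100859351-100885169 and Stat3 at chr11:100885098-100939540 in GRCm38). Stat5a was 78.5, 107 and 107 CPM in controls, 206 and 141 CPM in early livers, 71.0, 204 and 187 CPM in mid livers and 101 and 137 CPM in late livers. Both early libraries were above all controls, which held for 9.65% of all genes tested. Mid and late libraries overlapped with the controls through the TG series. The mid log2 fold change was 0.55 (SE 0.25, 95% interval 0.00 to 1.11) with an edgeR adjusted p of 0.116. Stat5b was 157, 285 and 277 CPM in controls, 226 and 345 CPM in early livers, 83.0, 275 and 269.7 CPM in mid livers and 131 and 254 CPM in late livers. Its log2 fold changes of -0.32 (SE 0.24, adjusted p 0.309) and -0.15 (SE 0.27, adjusted p 0.668) at the mid and late time points did not pass.

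**Figure D3:**
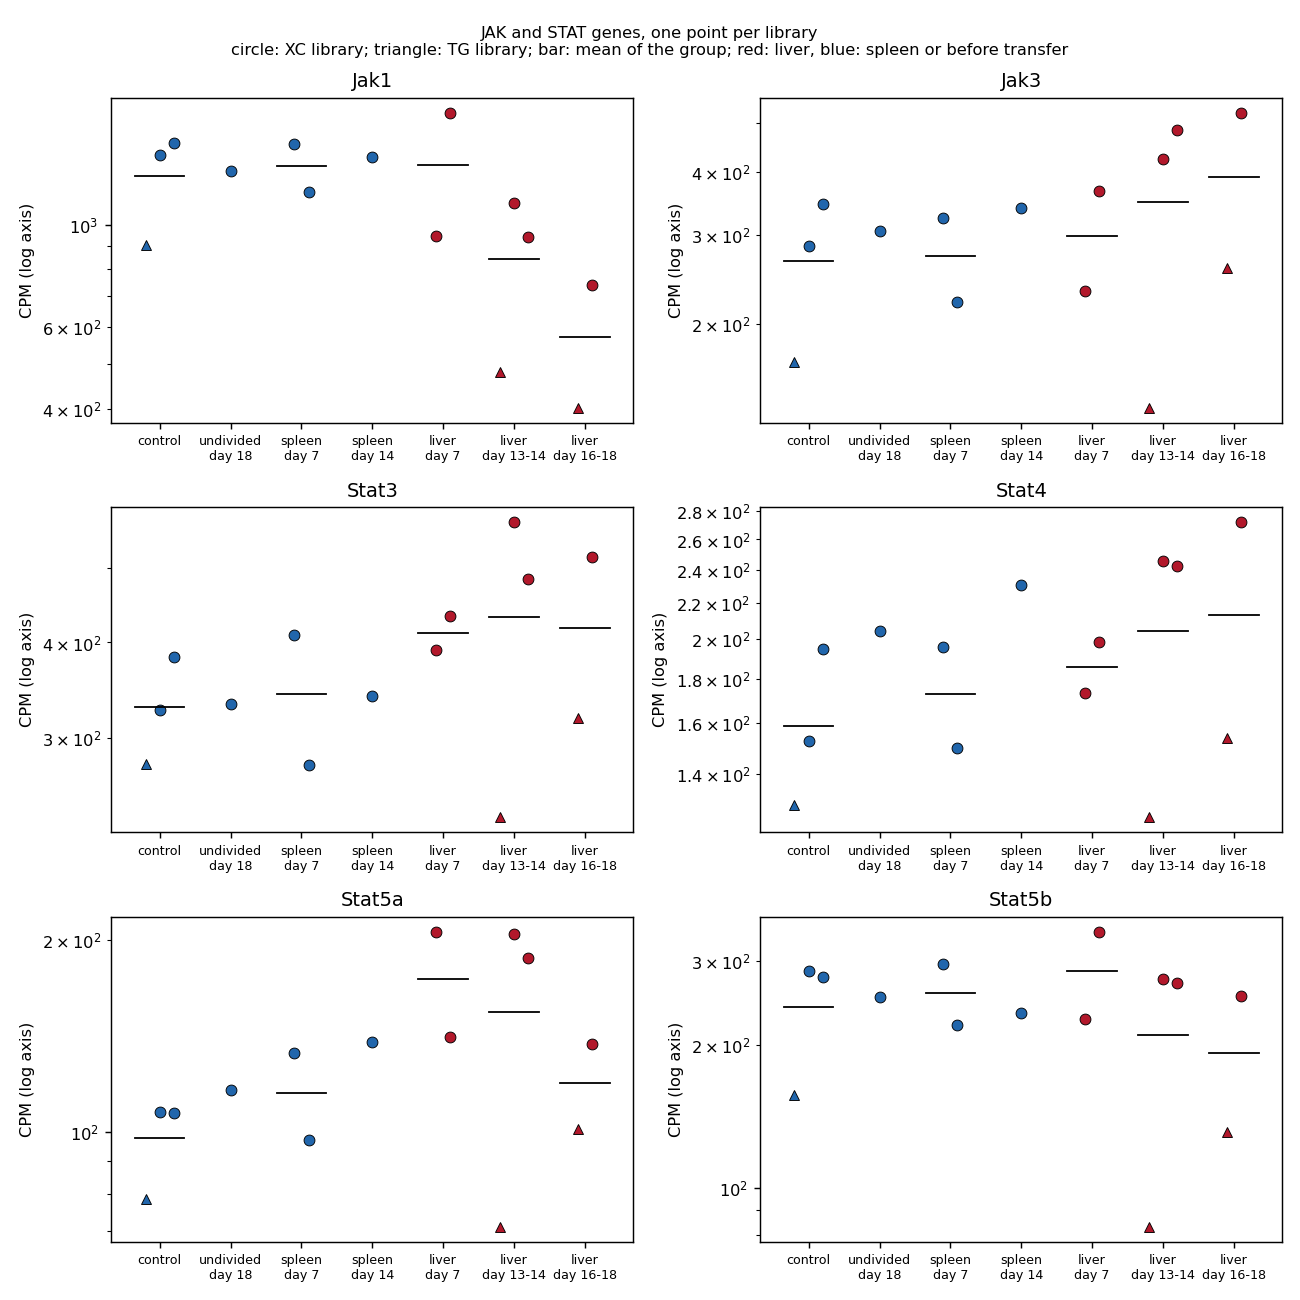
Level of each JAK and STAT gene in CPM (log axes, a separate range for each gene) for the 14 low-input libraries by group, drawn as for the SOCS family. Jak1 was 401 and 740.3 CPM in late liver against 904 to 1500.0 CPM in controls, and the triangles of the TG series lie at the bottom of the control, mid and late groups in each panel.

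The balance between the 2 STAT5 genes was compared after their values had been seen. The ratio of Stat5a to Stat5b CPM, read across libraries only, was 0.500, 0.376 and 0.386 in controls. It was 0.855, 0.742 and 0.695 in mid livers and 0.770 and 0.540 in late livers, all 5 above all 3 controls. How often the ratio of other gene pairs separates in this way was not computed. The mean log2 ratio was higher by 0.77 in mid and late livers together (n = 5) than in controls (n = 3), with a two-sided exact permutation p of 0.0357, the smallest that 5 libraries against 3 can give. The difference was 0.78 within the XC series and 0.70 within the TG series. Mid livers alone were higher by 0.87, with an exact permutation p of 0.1, the smallest that 3 libraries against 3 can give. As the ratio was chosen with the values known, and the permutations left out the series, these p-values are no independent support. Early livers 1 and 2 had ratios of 0.908 and 0.408, the spleens 0.442 to 0.594 and undivided cells 0.460. The 2 genes share 836 words of 31 bases, of 7293 in Stat5a and 5535 in Stat5b transcripts, so kallisto's division of reads between them carries an error that is not in these values.

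Stat5b transcripts differed more than the gene total. Stat5b-201 and Stat5b-202 are both coding, each has 19 exons in GENCODE vM21, and 18 of these are the same. They differ in the first exon, at chr11:100850399-100850724 for Stat5b-201 and at chr11:100822052-100822528, inside the gene, for Stat5b-202. RefSeq start regions of GRCm38.p6 lie near both, and their sequences are shown because each overlaps the first exon of a transcript compared here. The upstream RefSeq start site, chr11:100850581, lies inside the first exon of Stat5b-201. The internal RefSeq start site, chr11:100822570, lies before the first exon of Stat5b-202 and outside it. Neither site is therefore the GENCODE start of the transcript. The upstream region is chr11:100850532-100850831 and the internal region is chr11:100822521-100822820, both on the minus strand and in lower case, and neither held TTCNNNGAA.
Stat5b upstream: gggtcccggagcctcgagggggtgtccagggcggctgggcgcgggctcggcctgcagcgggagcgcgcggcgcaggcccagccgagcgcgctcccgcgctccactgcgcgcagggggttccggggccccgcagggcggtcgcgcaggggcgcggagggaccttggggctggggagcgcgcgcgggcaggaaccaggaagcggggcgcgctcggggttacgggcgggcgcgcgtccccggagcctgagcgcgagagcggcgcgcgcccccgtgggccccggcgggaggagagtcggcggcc
Stat5b internal: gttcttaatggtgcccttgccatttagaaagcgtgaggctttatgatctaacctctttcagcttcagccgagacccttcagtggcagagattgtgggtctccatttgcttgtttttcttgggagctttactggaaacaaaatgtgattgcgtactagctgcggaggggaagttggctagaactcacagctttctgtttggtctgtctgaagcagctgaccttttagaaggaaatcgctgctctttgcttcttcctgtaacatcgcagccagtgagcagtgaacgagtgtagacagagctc
Stat5b-202 was at 103.9, 138.0 and 91.8 CPM in controls, 15.8, 57.4 and 34.6 CPM in mid livers and 15.5 and 18.0 CPM in late livers. All 5 mid and late libraries were below all 3 controls. At gene level, 21.3% of all genes tested had every mid library below every control, and 28.2% every late library. The share over all transcripts was not computed. Stat5b-201 was at 47.6, 134.9 and 175 CPM in controls, 67.2, 204 and 224 CPM in mid livers and 116 and 228 CPM in late livers, and these overlapped.

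As a share of all Stat5b counts, Stat5b-202 was 66.1%, 48.3% and 33.1% in controls, 19.1%, 20.8% and 12.8% in mid livers and 11.8% and 7.10% in late livers. The other libraries lay above the mid and late range, with 26.0% and 61.1% in early livers 1 and 2, 33.2%, 31.4% and 29.6% in spleens of leukemia-bearing mice and 36.8% in undivided cells. From control 1 to 3 the share fell with the myeloid marker sum (513, 110.1 and 16.8 CPM). The red cell marker sum did not follow that order (2453, 9861 and 62.7 CPM). Control 3 was near the spleens and undivided cells, and the part of such RNA in the share was not tested. Mid and late livers together had a share of 14.3 ± 5.61% (SD, n = 5) against 49.2 ± 16.5% in controls (SD, n = 3), with a two-sided exact permutation p of 0.0357, again the smallest this design can give. The difference was -27.1 percentage points within the XC series and -50.6 within the TG series, and -42.9 to -26.4 on leaving out each of the 8 libraries in turn. For mid livers alone the difference was -31.6 percentage points, with an exact permutation p of 0.1, the smallest that 3 against 3 can give. This share was also chosen after the transcript values had been seen, so its permutation p-values are no independent support either. It rests on kallisto's assignment of the reads that reach the first exons (326 and 477 bases long), and how evenly these low-input libraries cover transcript starts was not tested.

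**Figure D4:**
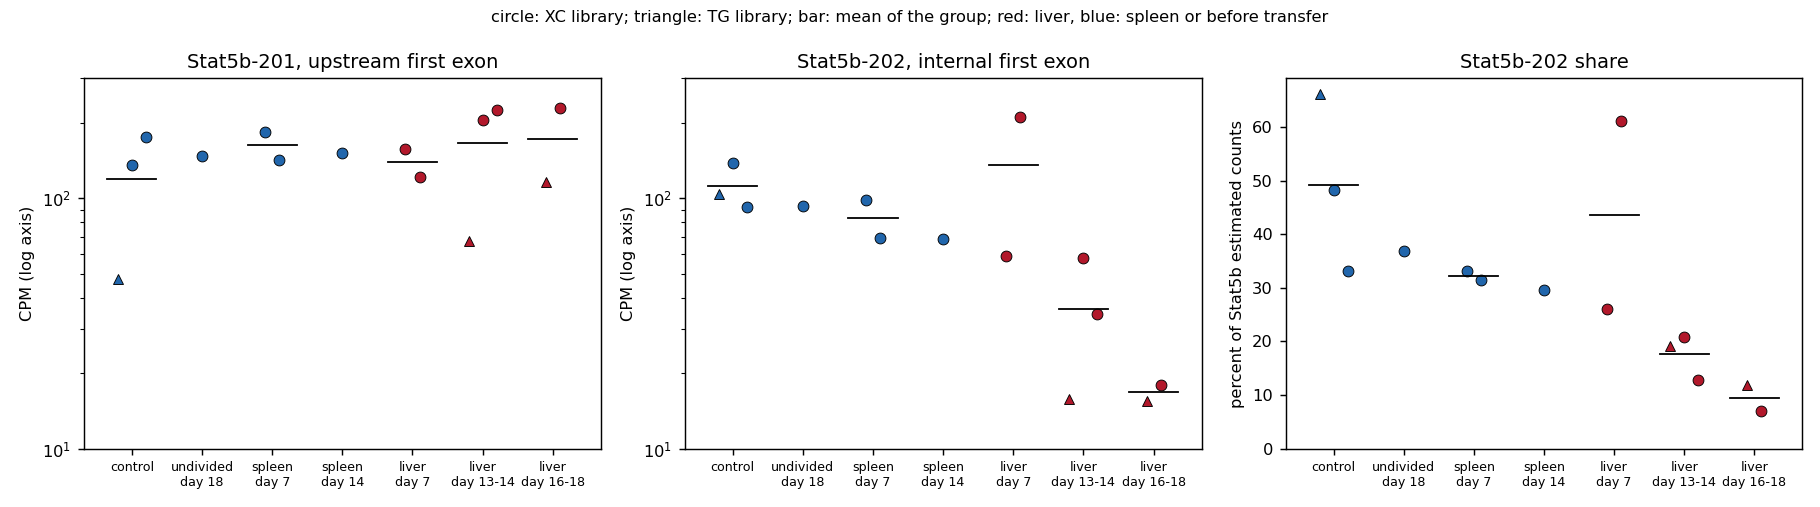
Level of the Stat5b transcripts with the upstream and the internal first exon in CPM (log axes) and the share of the internal one in percent of Stat5b estimated counts, for the 14 low-input libraries by group, drawn as above. The internal start transcript was 7.10% to 20.8% of Stat5b in the 5 mid and late liver libraries and 26.0% or more in the other 9.

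Other genes of the pathway were counted from lists of 57 genes, of which 53 were tested. In mid liver 12 were higher and 9 lower than in control, and in late liver 15 and 8, against the 29.4% and 34.4% of all genes given above. Their median log2 fold change was 0.04 at the mid and -0.14 at the late time point. None passed in the other 7 comparisons by edgeR, where 0 to 17 of the 53 had an unadjusted p under 0.05, the most in late liver against undivided cells. Of 19 receptors that signal through JAKs, 5 were higher and 4 lower in mid liver and 6 higher and 4 lower in late liver.

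Of the 3 interleukin-2 receptor genes, 2 rose. Il2rg, the common gamma chain, did not pass (log2 fold changes of -0.12, adjusted p 0.647, at the mid and -0.18, adjusted p 0.518, at the late time point). Il2ra, the high-affinity chain and itself a known STAT5 target, was 1.06, 0.734 and 1.89 CPM in controls and 77.1 to 139 CPM in mid and late livers (mid log2 fold change 6.59, adjusted p 0.0143). Il2rb, the chain shared with interleukin-15, was 178 to 289 CPM in controls and 769 to 1060.4 CPM in mid and late livers (mid log2 fold change 1.92, adjusted p 0.0116). Il12rb1, Il10ra and, at the mid time point, Il15ra rose too, by 2.42, 0.95 and 1.47 on the log2 scale, and Il9r and Il12rb2 rose at the late time point by 3.88 and 1.43. Receptors that fell were Il7r (mid log2 fold change -2.41), Il6ra (-2.39) and Ifngr2 (-3.22), which also fell at the late time point, Il27ra at the mid (-0.997) and Il6st, the gene of gp130, at the late time point (-1.36). Il6ra was 134 to 259.9 CPM in controls and 11.9 to 67.6 CPM in mid and late livers. All these contrasts use the same libraries as those of Cish, Socs3 and Jak1.

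Among 4 tested cytokine genes, Ifng was higher in mid and late livers (81.3 to 202.4 CPM against 0.649 to 3.07 CPM in controls). Il2 was 68.7, 25.2 and 16.7 CPM in mid livers and 19.8 and 0.607 CPM in late livers, against 0 to 0.0477 CPM in controls, and also passed in both comparisons. Il10 rose in late liver (1.98 and 3.03 CPM, adjusted p 0.0325), and Il15 fell in both (mid log2 fold change -2.65, adjusted p 0.0284). Il15 was highest in control 1, at 3.51 CPM, the library with the most myeloid marker RNA, and the part of that RNA in the Il15 fall was not tested.

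Among 8 other SOCS genes and partners of the SOCS box, the module that links these proteins to ubiquitin ligation, Elob, Eloc and Rnf7 rose at both time points, with mid log2 fold changes of 1.10, 0.87 and 0.69. All of them were highest in mid liver 1 and late liver 1, of the TG series. In mid livers 2 and 3, Eloc (54.7 and 61.8 CPM) and Rnf7 (62.2 and 59.3 CPM) were below control 1 (62.7 and 63.6 CPM). They were above controls 2 and 3 there. Socs4, Socs5, Socs6, Socs7 and Cul5 did not pass. Of 8 PIAS and phosphatase genes, Ptpn11 rose at both time points (log2 fold changes of 1.36 and 1.74), Ptpn1 rose at the late time point (0.71), and Pias1 fell at both (-0.94 and -0.90). Of the other JAK and STAT genes, Stat2 fell at the late time point (-1.15, adjusted p 0.0216), and Jak2, Tyk2 and Stat6 did not pass in either comparison. Among 9 genes known as STAT targets besides Cish and the Socs genes, Bcl2l1, which promotes survival, rose at both (1.67 and 1.61) and Irf1 fell at both (-1.21 and -1.57), while Bcl2 (-0.93) and Junb (-1.57) fell at the mid time point. Osm, Pim1, Pim2, Bcl3 and Ccnd2 did not pass.

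The genes most like each of the 10 were found by Pearson's r of log2 CPM over the 14 libraries, among 8794 protein-coding genes, as a description. The points share the 2 title series and a split between liver and other libraries. For Cish they were Sec61a1 (0.979), Pam16 (0.978) and Slc7a1 (0.975). For Socs3 they were Il17ra (0.976), Cep350 (0.972) and Acss1 (0.972), and for Jak1 Rasal3 (0.985), Stat2 (0.985) and Herc3 (0.984). For Stat5a they were Cand1 (0.969), Spata5 (0.965) and Tstd2 (0.96), and for Stat5b Clint1 (0.989), Nedd9 (0.979) and Dcaf5 (0.978). Stat4 and Jak3 shared Csnk1g3 (0.961 and 0.949), beside Gimap4 (0.936) and Tm9sf2 (0.933) for Stat4 and Dlg3 (0.951) and Nfkbie (0.941) for Jak3. Stat3 was most like Prkch (0.93), C2cd5 (0.909) and Vav3 (0.904). Values were lowest for Socs1 (Rdh13 0.854, Mmachc 0.847 and Hspa1a 0.837) and Socs2 (Dynlt3 0.823, Cd81 0.806 and Tmbim1 0.804).

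Some members share sequence with other annotated genes, and their counts are less certain. Stat4 shared 23.7% of its words of 31 bases, all with Gm28177, Stat5b 15.2% and Stat5a 12.3%, mostly with each other, Cish 10.4%, mostly with Gm17041, Jak3 8.29%, mostly with Insl3, and Socs2 6.55%, mostly with Gm9847. Stat3 shared 2.36% and Jak1 0.0273%. Socs1 and Socs3 shared none, so kallisto could not have split their reads with another gene of this annotation over such words. The change from day 7 to the mid time point in liver, less that from day 7 to day 14 in spleen, did not pass for any of the 10 genes, with an edgeR adjusted p of 1 and an unadjusted p above 0.05 for each, and a widest 95% interval, that of Socs3, from -4.36 to 1.74.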

How the data were processed

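RNA-seq of sorted TCRTg101 gave 26 runs of 15 libraries. The authors quantified transcripts with kallisto (builds mm10 and GRCm38 in the submitters' processing notes, versions not given in the sources used here) and deposited estimated counts (expected counts, not whole numbers), TPM normalized for length and depth, and transcript lengths for each run. Runs of 1 library were summed and counted as 1 sample. Transcripts were matched to GENCODE vM21 (98.255% of 118783, at least 98.998% of counts), summed per gene and rounded. The deposited TPM gave the levels compared between genes and 1 alternative.

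Genes needed 10 counts or more in 6 or more of the 14 low-input libraries. edgeR 4.0.16 in R 4.3.3 (TMM, robust quasi-likelihood, two-sided) fitted group and title series over all 14 libraries, and p-values were Benjamini-Hochberg adjusted with a threshold of 0.05. Whether the title series is the sequencing batch is not given in the sources used here. The labels do not say that libraries came from separate mice, so p-values measure the spread between these libraries, which may be technical. Groups of 1 to 3 libraries limit the precision, and a group of 1 is assumed to vary like the others. The oligo-dT library was left out of the tests. Log2 CPM used a prior count of 2. DESeq2 1.42.0 was an alternative. Others were RLE normalization, no series term, no count filter, first runs, counts scaled from TPM, fewer libraries, and each library left out. The fit was tested on simulated data. Exact permutation tests used scipy 1.17.1.

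All 10 members are named. For each, the 3 genes with the highest correlation were named, and list genes were named where they passed in mid or late liver or to complete a list, except for 1 gene that is not reported here. The members and lists were chosen with earlier results of these data known.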

Additional observations from a re-analysis of the deposited data

Results flagged for a closer look

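The oligo-dT library of naive TCRTg101, which no comparison uses, had a Socs3 level of 238 CPM, above the 133 to 190.5 CPM of the 3 control libraries when all 15 libraries are scaled together. It is 1 library made with another priming method and has no replicate check. Its Cish level was 6.30 CPM and its Socs1 level 23.7 CPM, both below the controls (8.44 to 11.5 and 50.5 to 64.7 CPM). The cause was not tested.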

How the results depend on the processing

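Each result was recomputed under 24 alternatives where they could be fitted, and the counts below are of the 10 genes. Day 0 controls alone and control 3 left out are the same fit, so tallies over the 24 include it 2 times. Mid liver against control, with 2 calls, had 1 without the series term, 1 with the 11 libraries without leukemia spleen, 0 in the XC series alone and 0 to 3 on leaving out each library in turn. Late liver against control, with 2 calls, had 4 with DESeq2, 4 without the count filter, 1 without the series term, 0 in the XC series alone and 0 to 3 with a library left out. The share of all genes that passed in this comparison with DESeq2 or without the filter is not given here. These counts of 4 are therefore not set against a background. For early liver the count of 0 became 1 with DESeq2 and without the count filter, and was 0 to 1 with a library left out. Late liver against undivided cells went from 0 to 2 with DESeq2 and without the filter and 1 without both early liver libraries, and 0 to 1 with a library left out. Mid liver against spleen at day 14 went from 0 to 1 without the filter and without both early liver libraries, and 0 to 1 with a library left out, and spleen at day 14 against control from 0 to 1 without the filter. The other 3 comparisons stayed at 0. Members called without the filter rest on a fit with 32719 genes.

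Cish kept its direction in mid and late liver under all alternatives (log2 fold changes of 2.93 to 3.18 and 2.67 to 3.55), as did Socs3 (-2.96 to -1.40 and -3.96 to -1.11) and Jak1 (-0.75 to -0.53 and -1.16 to -0.92). Signs turned only for values that never passed: Stat5b in late liver (-0.29 to 0.07 with a library left out, 0.07 without control 1 and 0.01 without late liver 2), Socs1 in mid liver (-0.06 to 0.22, with -0.04 without control 2 and -0.06 without mid liver 2) and Socs2 in mid liver (-0.03 to 0.98, with -0.03 without mid liver 3). Over all genes, the 4527 mid and 5289 late calls fell to 1765 and 2937 without the series term and to 0 and 8 in the XC series alone, where fewer libraries were fitted. The 0 calls in early liver became 401 with DESeq2, 1299 without the filter and 4 with day 0 controls alone. DESeq2 and no filter gave 53 and 325 for late against mid liver, 11 and 644 for spleen at day 7, 11 and 633 for spleen at day 14, 17 and 758 for mid liver against spleen at day 14, 1943 and 2219 for late liver against undivided cells, and 0 and 223 for undivided cells against control. Without both early liver libraries, spleen at day 14 had 212, mid liver against spleen at day 14 had 14, and late liver against undivided cells 2070 calls. With a library left out, mid calls ranged down to 3 (without mid liver 1) and late calls to 0 (without late liver 2). The causes were not tested. No paired analysis was possible because replicate numbers were given in accession order and the labels link no libraries across groups. Groups held 1 to 3 libraries, and depth matters most for Socs2, which had the lowest level of the 10 genes.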
